A study of Mus musculus with 2 samples.

Results

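The genes described here are those of the mouse mitochondrial genome, taken as every row of both gene tables whose identifier carries a symbol that starts with mt-. There were 37 of them among 43346 gene rows, made up of 13 coding genes, 2 ribosomal RNAs and 22 transfer RNAs, and 37 of 37 lie on chromosome M of mm10. The plus strand carries 28 of them, and the minus strand carries mt-Nd6 and 8 tRNAs. They were measured in polyadenylated RNA from the duodenum, where the small intestine begins, of C57BL/6J mice aged 8 weeks. The 2 libraries, replicate 1 and replicate 2, form 1 group with no treatment, and per the labels each came from pooled littermates of both sexes. The RNA was depleted of ribosomal RNA and selected for a size above 200 nucleotides, and paired reads of 76 bases kept the strand. The labels give 1 donor entry for both libraries, so part of their spread may be technical. All differences given are between these libraries and not between conditions.

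The mitochondrial genome is a small circle present in many copies per cell, and its coding genes specify core subunits of the respiratory chain and of the ATP synthase. Each strand is transcribed as a long precursor, which is cut at the tRNAs into separate messenger and ribosomal RNAs. Most of the messengers then receive short poly(A) tails, which in some of them complete the stop codon. Absorptive cells of the duodenum use the ATP made this way to drive nutrient and ion transport. Stretches of mitochondrial DNA have also been copied into nuclear chromosomes during evolution, and such copies can match the original nearly base for base.

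The ends of the messengers are shown first, since selection for poly(A) acts there. In GENCODE M21 (GRCm38, the assembly of mm10) 3 coding genes have a length that is not a multiple of a codon, and their last base, in capitals, is a T to which the tail adds the rest of the stop codon. The end of mt-Nd6, the 1 coding gene of the minus strand, is given beside them with its complete stop codon in capitals. All are the last 24 bases, 5′ to 3′ on the coding strand, at chrM:9367-9390, chrM:11521-11544, chrM:15265-15288 (plus strand) and chrM:13552-13575 (minus strand).
mt-Co3: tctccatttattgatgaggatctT
mt-Nd4: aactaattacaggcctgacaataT
mt-Cytb: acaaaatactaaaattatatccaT
mt-Nd6: attatcgagattactcgagatTAA

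The next sequences bear on the levels of the genes that have nuclear copies, since fragments that fit both were shared between gene and copy. A search of the annotated transcripts (identity of at least 95% over at least 100 bases) found 11 nuclear pseudogenes that match 9 of the 13 coding genes. Of these, 7 lie in mitochondrial gene order within 4663 bases of chromosome 1 (mm10, 24611535 to 24616197, minus strand), and 5 of the 7 are identical to the mitochondrial gene over the aligned part. An example of an identical pair is mt-Nd4l, a small membrane subunit of complex I, and Gm10222. The first line is chrM:9877-10173 (plus strand) and the second is chr1:24612407-24612700 (minus strand), and capitals mark the 3 bases that the annotated copy lacks.
mt-Nd4l: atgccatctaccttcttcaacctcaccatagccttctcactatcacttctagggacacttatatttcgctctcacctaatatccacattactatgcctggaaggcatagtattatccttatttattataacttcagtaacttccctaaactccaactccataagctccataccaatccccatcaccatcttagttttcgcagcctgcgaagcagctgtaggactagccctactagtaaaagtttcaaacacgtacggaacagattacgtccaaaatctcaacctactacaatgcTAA
Gm10222: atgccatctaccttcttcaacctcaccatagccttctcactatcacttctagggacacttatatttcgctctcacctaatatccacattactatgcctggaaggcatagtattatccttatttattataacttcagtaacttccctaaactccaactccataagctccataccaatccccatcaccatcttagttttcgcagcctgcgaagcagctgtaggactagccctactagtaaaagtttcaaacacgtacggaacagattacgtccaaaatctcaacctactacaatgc

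The other 2 copies on chromosome 1 differ from their gene at 1 base each within the aligned part, shown in capitals over 30 bases. Gm29216 matches the last 483 bases of mt-Co1 with the change A1066T, and Gm28438 matches mt-Nd3 with the change T3C, where positions count from the first base of the mitochondrial gene and its base is given first. The windows are chrM:6381-6410 and chr1:24616168-24616197 for the first pair, and chrM:9459-9488 and chr1:24613090-24613119 for the second. Gm29216 also starts with 9 bases that were not aligned to mt-Co1.
mt-Co1: ggtctaaccggaAttgttttatccaactca
Gm29216: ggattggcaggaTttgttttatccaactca
mt-Nd3: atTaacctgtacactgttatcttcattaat
Gm28438: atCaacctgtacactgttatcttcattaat

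Mitochondrial genes were a small share of both libraries. They held 471171 of 44272208 gene counts in replicate 1, or 1.06% (95% exact Clopper-Pearson interval 1.06 to 1.07), and 376654 of 44710137 in replicate 2, or 0.842% (0.840 to 0.845). Without molecular identifiers in the reads, these intervals stand for counting error alone. On the length-corrected scale (TPM, transcript abundance relative to the whole library, which divides by transcript length) the shares were 1.04% and 1.02%, so the libraries differed less there. Markers of the exocrine pancreas, stomach and Brunner's gland, organs that adjoin or line the duodenum, moved with the libraries. They were higher in replicate 1 for 31 of 31 genes, and summed to 11.7% of TPM in replicate 1 and 0.133% in replicate 2, with 1 of them at 0 in replicate 2. Without those markers in the total, the mitochondrial share of counts was 1.15% in replicate 1 and 0.843% in replicate 2.

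Coding genes made up nearly all of the mitochondrial counts, with 467197 in replicate 1 and 374125 in replicate 2. The 2 rRNAs held 3974 and 2529 counts, and whether the depletion step was aimed at them was not given in the sources used here. Transfer RNAs, 22 in number, which carry amino acids to the mitochondrial ribosome, were listed at 0 counts in both libraries. Their annotated lengths run from 59 to 75 bases, and the deposited effective length (the number of places a fragment can start) was 0 for 22 of 22. For mt-Co1 the annotated length exceeded the effective one by 188 bases in replicate 1 and by 213 bases in replicate 2. With an effective length of 0 no fragment can be assigned, so no limit on tRNA abundance follows from these zeros.

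**Figure D1:**
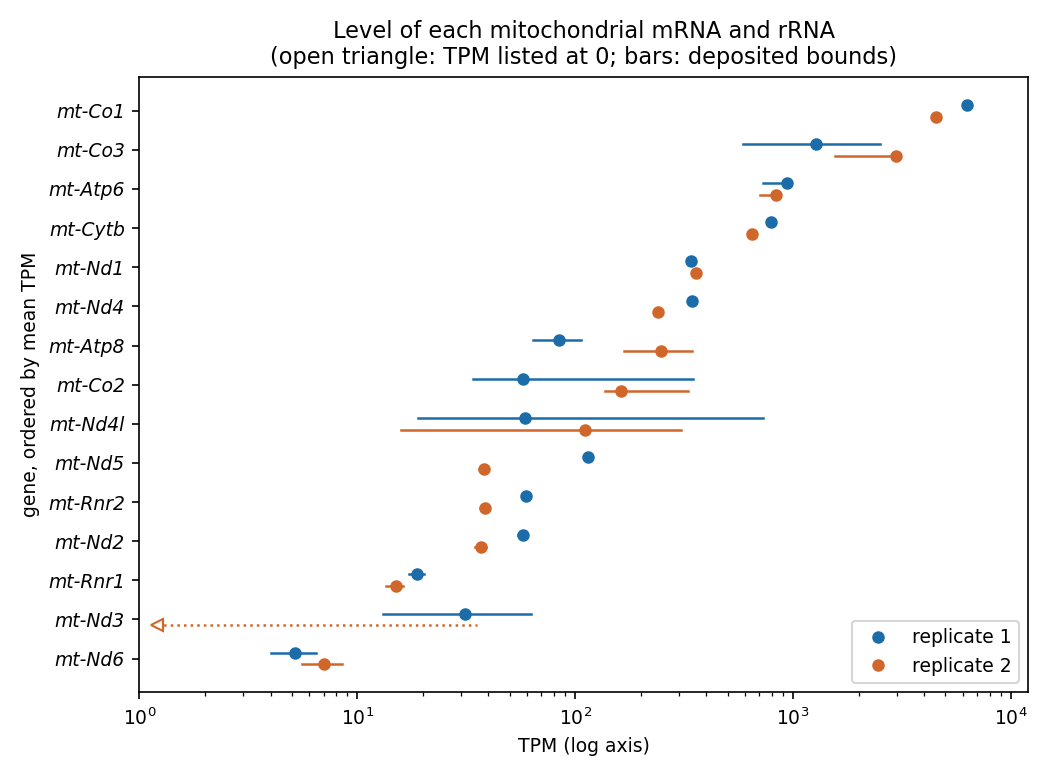
Deposited TPM (log axis) of the 13 coding genes and 2 rRNAs in replicate 1 (blue) and replicate 2 (orange), ordered by mean TPM, with lines for the bounds deposited with each TPM and an open triangle where TPM is listed at 0. mt-Co1 is highest in both libraries at 6261 and 4533 TPM, mt-Nd6 lies near the bottom at 5.17 and 7.02 TPM, and the widest bounds belong to mt-Co2, mt-Co3, mt-Nd3 and mt-Nd4l.

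Cytochrome c oxidase (complex IV), which passes electrons to oxygen, had the highest summed level of the complexes, 7596 TPM in the first library and 7648 TPM in the second. Its catalytic subunit gene mt-Co1 (ENSMUSG00000064351.1, chromosome M, 5328 to 6872, plus strand) had 6261 TPM in replicate 1 against 4533 TPM in replicate 2, with a mean of 5397 ± 1222 (SD, n = 2). It took 74.4% of the coding counts in replicate 1 and 63.9% in replicate 2. mt-Co3 (chromosome M, 8607 to 9390), another core subunit of the complex, came next in both libraries at 1277 and 2953 TPM. mt-Co2 (chromosome M, 7013 to 7696), the subunit that accepts electrons from cytochrome c, was far lower as assigned, at 57.7 and 162 TPM. Summed with its nuclear copies, mt-Co2 had 502 and 452 TPM, against 2946 and 3117 TPM for mt-Co3 with its copy. The order mt-Co1, mt-Co3, mt-Co2 was the same in both libraries.

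The ATP synthase (complex V) genes mt-Atp8 and mt-Atp6 share a messenger and overlap by 43 bases (chrM:7927-7969, plus strand), in different reading frames. The shared stretch runs from the start codon of mt-Atp6 to the stop codon of mt-Atp8, and is shorter than a read of 76 bases. The deposited SD of the mt-Atp8 count over possible assignments was 0 in both libraries.
mt-Atp8 and mt-Atp6: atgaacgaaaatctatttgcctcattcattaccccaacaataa
mt-Atp6 (chromosome M, 7927 to 8607), which forms the proton channel, reached 933 and 831 TPM, 3rd among the coding genes in both. mt-Atp8 (chromosome M, 7766 to 7969), a short stator subunit, had 84.0 and 247 TPM from only 58 and 30 counts. Its TPM was thus higher in replicate 2 and its count higher in replicate 1. The gene is 204 bases long, and its deposited effective length was 16.9 bases in replicate 1 and 3.06 bases in replicate 2. Its TPM rests on that length. Per annotated length, which makes no use of it, mt-Atp8 held 0.0640% of the summed level of the coding genes in place of 1.62% (means of both libraries).

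mt-Cytb (chromosome M, 14145 to 15288), the 1 mitochondrially encoded subunit of complex III, stood at 788 and 650 TPM, 4th in both libraries. No nuclear copy of it passed the search limits, and the deposited spread of its count over possible assignments was 0 in both libraries. As assigned, the 4 highest coding genes, mt-Co1, mt-Co3, mt-Atp6 and mt-Cytb, held places 1 to 4 in this order in both libraries, also by counts per annotated length. Neighbours in that order were not always apart: in replicate 1 the deposited bounds of mt-Co3 (587 to 2499 TPM) enclosed the values of mt-Atp6 and mt-Cytb. The order also rests on how fragments were shared with copies. With Gm10222 added, mt-Nd4l had 1963 TPM in replicate 1 and 1345 in replicate 2, above mt-Atp6 and mt-Cytb in both.

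The 7 genes of complex I (NADH dehydrogenase), the entry point of electrons from NADH, summed to 952 and 789 TPM, or 871 ± 115 (SD, n = 2). That sum takes the fragments as assigned. mt-Nd4l together with Gm10222 had 1963 and 1345 TPM, which exceeds that sum in both libraries. mt-Nd1 (chromosome M, 2751 to 3707), a membrane subunit next to the quinone site, had 341 and 358 TPM. mt-Nd4 (10167 to 11544), a proton-pumping subunit, had 343 and 239 TPM. These genes exchanged places between the libraries, so their order was not resolved. mt-Nd5 (11742 to 13565), another pumping subunit, had 115 and 38.02 TPM, and mt-Nd2 (3914 to 4951), likewise a pump, had 57.6 and 37.1 TPM. mt-Nd4l (9877 to 10173) had 58.6 and 110 TPM, below mt-Nd5 in replicate 1 and above it in replicate 2. The deposited bounds of mt-Nd4l ran from 19.0 to 730 TPM in replicate 1 and from 15.8 to 305 TPM in replicate 2, so its place was not resolved. mt-Nd3 (9459 to 9806), a small subunit of the hinge between the arms of the enzyme, had 31.2 TPM in replicate 1 and was listed at 0 in replicate 2. Its deposited upper bound in replicate 2 was 35.4 TPM, above its value in replicate 1.

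mt-Nd6 (chromosome M, 13552 to 14070, minus strand), a membrane subunit of complex I, had 70 counts in replicate 1 and 85 in replicate 2, or 5.17 and 7.02 TPM. In TPM it was the lowest coding gene in replicate 1, and in replicate 2 the lowest apart from mt-Nd3. By counts mt-Atp8 was lower in both libraries (58 and 30). All counts from minus strand genes were those of mt-Nd6, which made 0.0149% of the mitochondrial counts in replicate 1 and 0.0226% in replicate 2. Its sequence differed from the other coding genes in composition, with 43.7% T and 5.97% C on its coding strand, whereas mt-Nd5 had 28.6% T and 27.1% C. mt-Nd6 overlaps mt-Nd5 on the opposite strand by 14 bases. The libraries kept the strand per the labels, but the use of strand in counting was not given in the sources used here.

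Of the rRNAs, mt-Rnr2 (chromosome M, 1094 to 2675), of the large ribosomal subunit, had 3382 counts, or 59.3 TPM, in replicate 1 against 2088 counts, or 38.5 TPM, in replicate 2. mt-Rnr1 (70 to 1024), of the small subunit, had 592 and 441 counts. Both were higher in replicate 1 in counts and in TPM. Their levels here are those left after depletion of ribosomal RNA and selection for poly(A), and they are no measure of rRNA in the tissue.

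The nuclear copies took a large and uneven part of the fragments. Copies held 106778 counts in replicate 1 and 68304 in replicate 2, or 18.5% and 15.4% of the counts of mitochondrial genes and copies together. Nearly all of this fell to 5 of the 11 copies, while the other 6 had fewer than 20 counts in both libraries. Gm29216, the copy of the end of mt-Co1 (ENSMUSG00000101249.1, 492 bases long), was given 48719 counts in replicate 1 and 54911 in replicate 2. Gm10222 was given 8249 and 3955 counts, against 261 and 367 for mt-Nd4l, so that 96.9% and 91.5% of their joint counts went to the copy. Fragments inside an identical stretch cannot be told apart by their bases, while those over a differing base can. The deposited SD over possible assignments was 252 and 250 counts for Gm29216, and 931 and 275 counts for Gm10222. The counts of gene and copy describe the assignment and not the origin of the RNA.

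The assignment was least alike between the libraries for mt-Co3. Its identical copy Gm28437 was given 40628 counts in replicate 1 and 3694 in replicate 2, which is 56.6% and 5.24% of the joint counts. Gene and copy together had 71742 and 70488 counts. The deposited SD of the mt-Co3 count over possible assignments was 15432 counts in replicate 1 and 9864 in replicate 2. For mt-Co2 the copies Gm28661 and Gm13341 took 88.4% of the joint counts in replicate 1 and 64.0% in replicate 2. For mt-Nd3 the copy Gm28438 took 51.0% in replicate 1 and the whole in replicate 2, with 212 and 369 counts. Gm10925 and Gm28439, which are identical to mt-Atp6 and to the first 876 bases of mt-Nd4, were given under 3 counts in either library. For Gm10925 the deposited mean count over possible assignments was 1882 in replicate 1 and 917 in replicate 2 (SD 1310 and 605), so that split was unsettled too. For Gm28439 that mean was 1.65 and 0.31 counts.

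**Figure D2:**
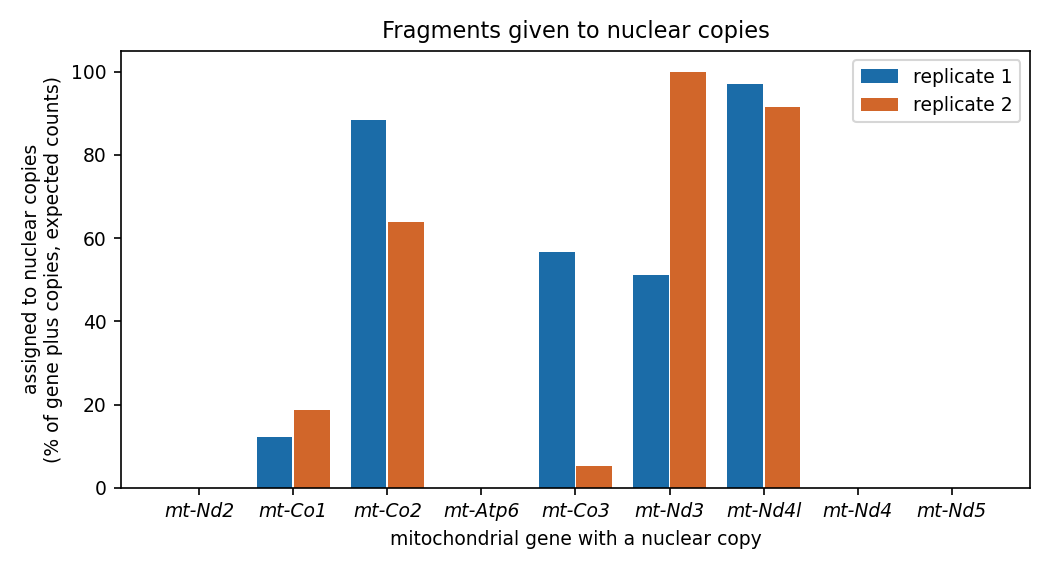
Share of the joint expected counts of a mitochondrial gene and its nuclear copies that was assigned to the copies, in percent, for the 9 coding genes with a copy, in replicate 1 (blue) and replicate 2 (orange). Copies took 56.6% and 5.24% for mt-Co3 and over 90% in both libraries for mt-Nd4l, while the bars of mt-Nd2, mt-Atp6, mt-Nd4 and mt-Nd5 are at or near 0.

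The difference of each gene between the libraries was then compared within a test of 15921 genes, those whose mean count reached 10. A gene was called where an exact two-sided binomial test, given library sizes scaled by TMM and adjusted by the Benjamini-Hochberg method, gave p under 0.05 and the scaled ratio was at least 2-fold. In that comparison 26.1% of all genes were called, 14.6% as higher in replicate 1 and 11.5% as higher in replicate 2. Of the 15 mitochondrial genes tested, 2 were called higher in replicate 1 (mt-Nd5 and mt-Nd3) and 2 higher in replicate 2 (mt-Co2 and mt-Co3), a share close to that of all genes. The other 22 members, the tRNAs, had no counts and were not tested. The median log2 ratio of the 13 coding genes (replicate 2 over replicate 1) was −0.14, beside −0.044 for all genes tested.

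mt-Nd5 was the clearest difference. It had 7682 counts in replicate 1 and 2427 in replicate 2, and was 2.71-fold higher in replicate 1 (95% Clopper-Pearson interval 2.59 to 2.84). Its nearest match, Gm4076, had 0 counts in both libraries, so the sum with copies was the same. The neighbouring mt-Cytb, on the same strand, was 1.10-fold higher in replicate 1 (1.08 to 1.12), and mt-Nd4 1.30-fold higher (1.27 to 1.33). Neither of these passed the 2-fold limit.

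The other 3 calls ended when the counts of nuclear copies were added to the gene. mt-Co2 alone had 1171 and 3027 counts, a ratio (replicate 2 over replicate 1) of 3.02 (2.82 to 3.23). With its copies it had 10131 and 8400 counts, a ratio of 0.968 (0.940 to 0.996). mt-Co3 alone was 2.50-fold higher in replicate 2 (2.47 to 2.54), and 1.15-fold (1.13 to 1.16) with its copy. mt-Nd3 had 204 counts in replicate 1 and 0 in replicate 2. That 0 was 1 possible assignment: the deposited posterior mean, an average over assignments, was 265 counts in replicate 1 and 50.8 in replicate 2 (SD 61.3), a log2 ratio of −2.15. With Gm28438 it had 416 and 369 counts, a ratio of 1.04 (0.897 to 1.19). Summing also turned the sign of mt-Nd4l, from 1.64-fold higher in replicate 2 alone to 1.69-fold higher in replicate 1 (1.63 to 1.75), neither of them called.

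**Figure D3:**
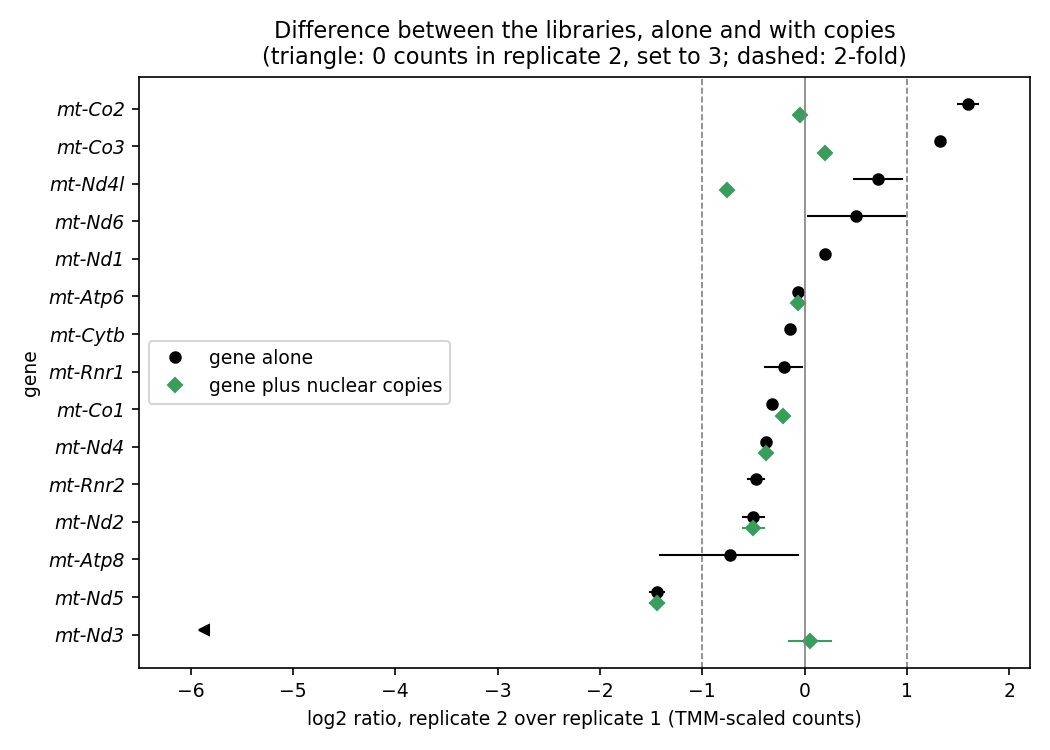
Log2 ratio, replicate 2 over replicate 1, of TMM-scaled counts for each mitochondrial messenger and rRNA alone (black, with 95% interval) and with the counts of its nuclear copies added (green), where dashed lines mark 2-fold and the triangle is mt-Nd3, whose 0 counts in replicate 2 were set to 3. Alone, mt-Co2 and mt-Co3 lie right of the 2-fold line and mt-Nd5 and mt-Nd3 left of it, and with copies only mt-Nd5 of those with a green point lies past it.

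The tables also give bounds for each TPM, though the TPM lay outside its own bounds in at least 1 library for 4 genes (mt-Co1, mt-Atp6, mt-Co3 and mt-Nd3). The bounds overlapped between the libraries for 6 of the 15 genes, which were mt-Co2, mt-Atp6, mt-Co3, mt-Nd3, mt-Nd4l and mt-Nd6. For mt-Co3 they ran from 587 to 2499 TPM in replicate 1 and from 1559 to 2856 TPM in replicate 2. For mt-Nd5 they ran from 111 to 116 TPM and from 36.2 to 39.1 TPM, so the libraries stood apart. With the copies added, the complex IV messengers mt-Co2 and mt-Co3 had 502 and 2946 TPM in replicate 1 and 452 and 3117 TPM in replicate 2.

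The remaining members differed by less than 2-fold. mt-Co1 was 1.25-fold higher in replicate 1 (1.24 to 1.25), and 1.15-fold higher with its copies (1.15 to 1.16). mt-Nd2 was 1.42-fold higher in replicate 1 (1.32 to 1.52), mt-Rnr2 1.39-fold (1.31 to 1.47) and mt-Rnr1 1.15-fold (1.02 to 1.30). mt-Atp6 was within 1.05-fold, and mt-Nd1 was 1.15-fold higher in replicate 2 (1.12 to 1.18). mt-Nd6 had a ratio of 1.42 (1.02 to 1.97) and mt-Atp8 was 1.66-fold higher in replicate 1 (1.05 to 2.67), both with wide intervals from few counts. Scaling by the ERCC spike-ins, synthetic RNAs added to each library, lowered the log2 ratio of every gene by 0.24. The same 4 mitochondrial genes were called, and mt-Nd1 changed sign (−0.046 on the log2 scale). Over all genes 55.9% of the calls were higher in replicate 1 with TMM, 71.8% with the spike-ins and 71.6% with plain totals.

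Nuclear genes that serve the mitochondrial genome were set beside it. In the list of mitochondrial transcription and replication 2 of 15 genes tested passed the test, each towards replicate 1. The list had a median log2 ratio of −0.32. Its calls were 13.3%, against 14.6% of all genes in that direction and 26.1% in either. The largest was Top1mt, the mitochondrial topoisomerase, which was 3.28-fold higher, with 5.79 TPM against 1.58 TPM. The polymerase that transcribes the mitochondrial genome, Polrmt, was not called, at 59.6 and 41.9 TPM. Mterf3, of the mitochondrial termination factor family, had the highest TPM of the list (169 and 169) but only 354 and 182 counts, 1.67-fold higher in replicate 1 and not called. The next after Polrmt was the DNA polymerase Polg, not called (17.65 and 16.02 TPM).

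In the list of RNA processing, tailing and decay 5 of 22 genes were called, all higher in replicate 1, with a median of −0.17. These calls were 22.7%, against 14.6% of all genes in that direction and 26.1% in either. The largest was Pnpt1, a ribonuclease of mitochondria, 4.42-fold higher at 9.55 and 1.45 TPM. Lrpprc and Slirp, which bind together to mitochondrial messengers and stabilise them, were 2.43-fold and 2.45-fold higher in replicate 1, and were named after their values were seen. The most abundant members, none of them called, were Fastk (369 and 285 TPM), Tbrg4 (123 and 104 TPM) and Hsd17b10 (37.4 and 34.9 TPM), a subunit of the enzyme that cuts the 5′ end of mitochondrial tRNAs.

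Of 78 genes of the mitochondrial ribosome 6 were called higher in replicate 1 and 4 higher in replicate 2, 12.8% in all against 26.1% of all genes, with a median of −0.042. Mrpl52 was the most abundant and the most different, 6.58-fold higher in replicate 1 at 2401 and 364 TPM. Mrps24 followed at 443 and 511 TPM, not called, and Mrps34 at 182 and 480 TPM, higher in replicate 2. Mrps15 had the largest ratio towards replicate 2, 2.74-fold at 90.9 and 227 TPM.

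Of 33 nuclear subunits of the respiratory chain and ATP synthase 3 were called higher in replicate 2 (9.09%, against 11.5% of all genes). In the other direction 1 was called higher in replicate 1 (3.03%, against 14.6% of all genes). A further 8 names of that list, newer symbols of ATP synthase genes it already holds, matched no row. Its median was 0.38, which lies on the other side of 0 from that of the mitochondrial coding genes. The difference between these medians was not tested. The 3 most abundant were Cox6a1 (4283 and 9315 TPM, called), Atp5d (5593 and 7141 TPM) and Atp5b (5994 and 6681 TPM). Cox7b had the largest ratio, 2.48-fold higher in replicate 2, and Atp5f1 was the 1 gene higher in replicate 1 (2.26-fold). Enterocyte markers mostly moved towards replicate 2: 9 of 14 were called higher there (64.3%, against 11.5% of all genes). Alpi was the 1 called higher in replicate 1 (7.14%, against 14.6%), 4.08-fold at 7153 and 1568 TPM. The 14 markers summed to 13953 and 34245 TPM. Of 10 plasma cell and T lymphocyte markers 5 were called higher in replicate 2 (50%, against 11.5%), with sums of 23662 and 28033 TPM. The 5 were T lymphocyte genes (Cd3d, Cd3e, Cd3g, Cd8a and Gzmb). None of the plasma cell genes (Igha, Igkc, Jchain and Mzb1) was called. Most of the sums came from Igha, at 15722.6 and 16968.5 TPM. Of 8 smooth muscle markers 2 were called higher in replicate 1 (25%, against 14.6%), with sums of 1906 and 1284 TPM. In bulk tissue fewer cells of a type and less RNA per cell cannot be told apart, and the part of cell composition in these ratios was not tested.

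**Figure D4:**
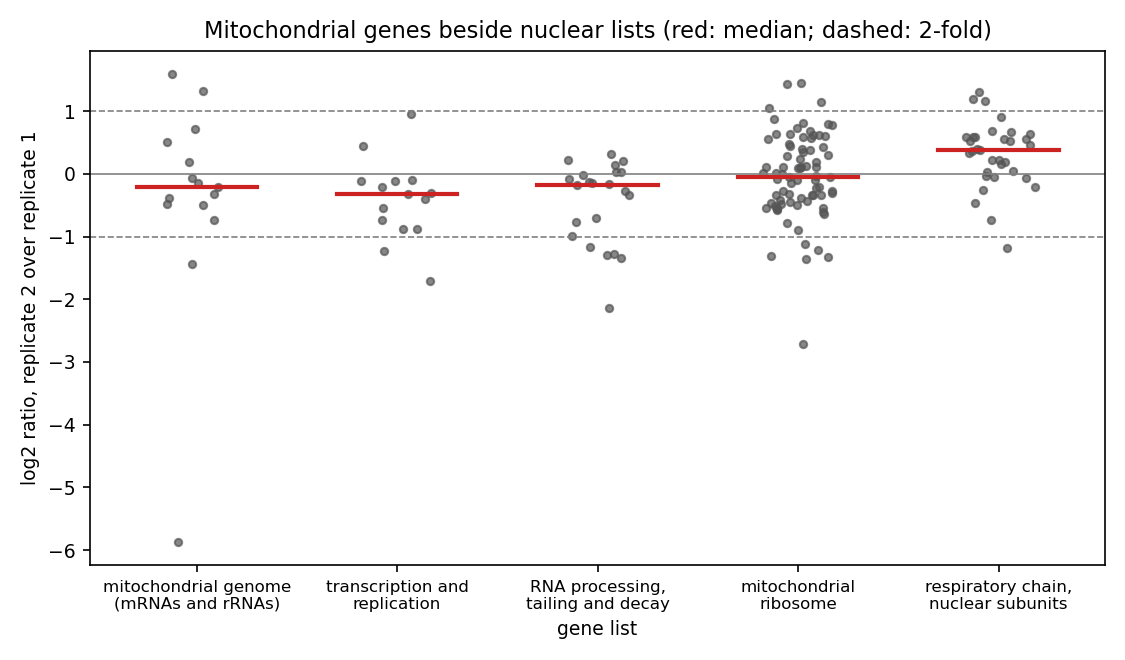
Log2 ratio, replicate 2 over replicate 1, of each tested gene (points) and the median (red) for the 15 mitochondrial genes and 4 lists of nuclear genes, where dashed lines mark 2-fold and the lowest point is mt-Nd3, whose 0 counts in replicate 2 were set to 3. Medians run from −0.32 for transcription and replication to 0.38 for nuclear subunits of the respiratory chain.

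The list of contigs (transcribed stretches) of the series, given on mm9 and not per library, held 10 contigs on chromosome M, of which 9 lie on the plus strand and 1 on the minus strand. The plus strand held 99.998% of their summed values. The strongest (chromosome M, 5187 to 6725, mm9) had a signal of 2610, which is proportional to its summed value per base, and took 79.1% of the sum for the chromosome. The next signals were 283 (10815 to 11544) and 162 (11755 to 15288). Between 6726 and 10814, a stretch of 4089 bases, the plus strand held only 2 contigs, with signals of 0.136 and 0.213. The 1 contig of the minus strand (1090 to 1583) had a signal of 0.212, against 87.6 for the plus strand contig that spans the same positions. How reads that match several places entered this list was not given in the sources used here, and the positions were not set beside the mm10 genes.

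Mitochondrial genes have no introns, and the deposited junction list (mm9) held 78 junctions on chromosome M, none of them flagged as annotated and 78 of 78 on the plus strand. They carried 294 reads in all, and 44 of them rested on 1 read. Reads in both of the entries named R1 and R2 were found for 7. The most used, with 88 and 58 reads, spanned 61 bases (6458 to 6518) and 67 bases (6451 to 6517), within the strongest contig. Of the 78, 67 spanned fewer than 200 bases.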

How the data were processed

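The 2 libraries were close in depth, at 44977004 and 45438504 deposited counts (replicates 1 and 2) over every row, spike-ins and phiX among them. Per the text files beside the tables, alignment was to mm10 and the annotation GENCODE M4, while the quantifier was not given in the sources used here. Expected counts, as deposited, are estimated fragments per gene, with fragments of several places shared out, and were rounded for tests. TPM and FPKM were deposited by the authors beside each effective length, with these units per the file headers. Bounds and SDs come from the same tables, and the level of the bounds is not given. The deposited signal, score and read counts of contigs and junctions (mm9) were used as given.

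Symbols, positions and sequences came from GENCODE M21 by identifier without version, and 42462 of 43346 gene rows matched. Copies were found with blastn 2.17.0. Spike-ins (1.35% and 1.36% of counts), phiX and numbered rows stayed out of library sizes. TMM came from edgeR 4.0.16 (R 4.3.3), and other steps used Python 3.11.15 with scipy 1.17.1. The quasi-likelihood test has no residual degrees of freedom for 1 library against 1, so an exact binomial test was used. It was checked on data simulated with counting error alone, which cannot show how it does with the spread between real libraries. The test covers counting error only. Transcript tables were not used.

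The members and lists were chosen with earlier results of these data known. All mRNAs and rRNAs are named, and in nuclear lists the 3 genes of highest mean TPM and the called gene of largest ratio in each direction. Alternatives were DESeq2 1.42.0 size factors, spike-in sums, plain totals, TMM without organ markers, TPM, posterior mean counts, summed copies and no filter.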

Additional observations from a re-analysis of the deposited data

How the results depend on the processing

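The count of called mitochondrial genes, 4, depended on how shared fragments were counted. It was 2 with posterior mean counts, where mt-Co2 and mt-Co3 ended as calls, and 1 with copies summed. It was 4 or 5 with DESeq2 size factors, spike-in sums, plain totals, TMM without organ markers, no filter and TPM. The median log2 ratio of coding genes, −0.14, moved to −0.38 with spike-in sums and with plain totals, and to −0.32 with posterior mean counts. Of 120 log2 ratios of single genes recomputed, 110 kept direction and call, and 7 changed sign. The call was lost in 5, of which 2 also changed sign, and mt-Atp8 gained one on the TPM scale. The sign of mt-Nd1 (0.20) changed with spike-in sums (−0.046) and plain totals (−0.040). mt-Nd4l (0.71) changed with posterior mean counts (−0.78) and with summed copies (−0.75). mt-Co2 (−0.047) and mt-Nd3 (0.050) changed with summed copies, and mt-Atp8 on the TPM scale (1.56). With spike-in sums the median of nuclear respiratory subunits went from 0.38 to 0.14, RNA processing from −0.17 to −0.41, transcription and replication from −0.32 to −0.56, and the ribosome from −0.042 to −0.28. Summing copies changes the counts of a gene by construction. Spike-in sums and plain totals lowered every log2 ratio by 0.24, and the coding median minus that of all genes stayed at −0.097. That difference was −0.27 with posterior mean counts, and changed sign to 0.033 on the TPM scale. The TPM of mt-Atp8 rests on effective lengths of 16.9 and 3.06 bases. What lay behind the other changes was not tested. The mean mitochondrial share of counts, 0.953%, was 1.15% with copies summed and ran from 0.842% to 1.06% with a library left out. The share of minus strand genes in mitochondrial counts, 0.0187%, was 0.0591% in TPM and ran from 0.0149% to 0.0226% with a library left out. The copies' share of the joint counts, 16.9%, was also 16.9% at 98% identity and over 200 bases. No paired analysis was possible because there is 1 group. With a library left out, no difference between libraries could be computed. By depth alone, a count of 0 allows up to 3 counts, 0.0678 CPM in replicate 1 and 0.0671 CPM in replicate 2. This limit does not hold for the 22 tRNAs, whose effective length was 0. Nor does it hold for mt-Nd3 in replicate 2, whose posterior mean was 50.8 counts.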
